A study of Mus musculus with 6 samples.

Results

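The 10 genes described here, Kcne4, Dpep1, Crispld2, Adra2a, Htra4, Emilin1, Agt, Clec11a, Slit3 and Thbs3, form a named set out of 24959 genes in the deposited count table. Each was selected on its measured level, which lay higher in all 3 libraries from tissue with Pkm deleted (Pkm cKO) than in all 3 control libraries. The contrast that picked the genes is therefore given as a description and carries no test. All 10 had enough reads to enter the fit of 15930 genes.

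The libraries were made from total RNA of mouse dental epithelial cells collected at postnatal day 0. They fell into 3 Pkm cKO samples, whose genotype label reads PKM knockout, and 3 control samples, whose genotype label reads WT. Pkm encodes the M-type pyruvate kinases, whose reaction closes glycolysis, and the comparison addresses what changes in tooth epithelium when the gene is lost. The sources used here do not give the Cre driver, the deleted exon, the strain, or whether a library came from 1 animal or a pool. The labels call the samples biological replicates, so p-values below reflect only how far these samples spread.

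The libraries held 30588350 to 39085792 counted reads in Pkm cKO samples and 38130829 to 39415700 in controls. Levels are given as CPM, the reads of a gene relative to the scaled size of its library. Pkm stood at 309, 395 and 350.5 CPM in Pkm cKO replicates 1 to 3, against 1281, 1185 and 1049 CPM in control replicates 1 to 3. Its log2 fold change, Pkm cKO over control, was -1.74 (SE 0.159, edgeR quasi-likelihood adjusted p 0.0109), and without Pkm cKO replicate 3 it was -1.73 (edgeR adjusted p 0.0152). It missed the threshold of 0.05 when 1 control was left out, with an edgeR adjusted p of 0.0792, 0.0600 and 0.0790 without control replicates 1, 2 and 3. Pklr, the liver and red-cell pyruvate kinase gene, never exceeded 10 reads and stayed out of the fit. Pkm cKO replicate 3 stood apart from the other 5 libraries in its skeletal muscle markers, whose sum there was 2593 CPM, so values are given with and without it.

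The set is mixed in function. Stroma is the connective tissue around an epithelium, made by fibroblast-like cells that secrete matrix proteins, proteases and growth factors. In the tooth, the stroma next to the enamel epithelium is the dental mesenchyme, which forms dentin and pulp, and signals pass both ways between it and the epithelium. Agt encodes angiotensinogen, the protein from which renin cuts the precursor of the pressor hormone angiotensin. Adra2a encodes an adrenergic receptor that lowers cyclic AMP through Gi proteins, Slit3 a secreted ligand of Robo receptors that steers migrating cells and axons, and Clec11a a secreted lectin that promotes bone formation in mice. Kcne4 encodes an accessory subunit that restrains voltage-gated potassium channels. Dpep1 encodes a membrane-anchored dipeptidase that acts on glutathione and leukotriene products, and Htra4 a secreted serine protease best known from human placenta. Emilin1 encodes a glycoprotein of elastic fibres that restrains TGF-beta processing, Thbs3 a thrombospondin of cartilage and bone matrix, and Crispld2 a secreted protein of the CAP superfamily.

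The promoters of the set, taken from RefSeq on build GRCm38.p6, were read from 250 bases before to 50 bases after the annotated start. A window was found for 9 of the 10 genes. The first 3 sequences are shown because they hold the E-box CACGTG, a palindrome that basic helix-loop-helix factors such as USF and MYC can bind. Agt is shown for having the fewest CpG pairs of the set and Slit3 for having the most. Capitals mark every match to the 7 motifs searched on both strands. The core promoter motifs were the TATA box, searched as TATAAA, the CCAAT box by its own letters, and the GC box, searched as GGGCGG. Beside the E-box, the AP-1 motif was searched as TGANTCA, the TEAD motif as CATTCC and the RUNX motif as TGTGGT. Sequences run 5′ to 3′ on the strand of the gene.
Kcne4 promoter, chr1:78816661-78816960, plus strand: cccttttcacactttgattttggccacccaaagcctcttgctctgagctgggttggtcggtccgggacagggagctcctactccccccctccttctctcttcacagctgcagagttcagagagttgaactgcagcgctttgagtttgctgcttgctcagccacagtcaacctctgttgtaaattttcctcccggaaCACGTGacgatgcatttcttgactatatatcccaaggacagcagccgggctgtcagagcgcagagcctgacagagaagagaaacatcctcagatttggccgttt
Crispld2 promoter, chr8:119992188-119992487, plus strand: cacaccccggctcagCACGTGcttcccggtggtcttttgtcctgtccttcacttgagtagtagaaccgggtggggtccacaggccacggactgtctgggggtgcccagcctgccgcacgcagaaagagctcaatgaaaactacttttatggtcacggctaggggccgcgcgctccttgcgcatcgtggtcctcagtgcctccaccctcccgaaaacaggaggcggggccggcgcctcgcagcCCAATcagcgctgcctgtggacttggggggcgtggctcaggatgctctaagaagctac
Adra2a promoter, chr19:54045009-54045308, plus strand: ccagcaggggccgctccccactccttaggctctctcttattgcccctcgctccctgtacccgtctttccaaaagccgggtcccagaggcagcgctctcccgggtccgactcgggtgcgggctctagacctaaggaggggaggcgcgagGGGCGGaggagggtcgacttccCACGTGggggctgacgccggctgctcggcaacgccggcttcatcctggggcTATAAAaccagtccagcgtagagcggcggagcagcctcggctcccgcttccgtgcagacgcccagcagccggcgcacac
Agt promoter, chr8:124569657-124569956, minus strand: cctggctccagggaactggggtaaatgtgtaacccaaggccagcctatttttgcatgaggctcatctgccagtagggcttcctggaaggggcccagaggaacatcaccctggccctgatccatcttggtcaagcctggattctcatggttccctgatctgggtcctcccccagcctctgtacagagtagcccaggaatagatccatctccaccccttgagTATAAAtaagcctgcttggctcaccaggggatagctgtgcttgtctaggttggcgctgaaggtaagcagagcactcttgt
Slit3 promoter, chr11:35121206-35121505, plus strand: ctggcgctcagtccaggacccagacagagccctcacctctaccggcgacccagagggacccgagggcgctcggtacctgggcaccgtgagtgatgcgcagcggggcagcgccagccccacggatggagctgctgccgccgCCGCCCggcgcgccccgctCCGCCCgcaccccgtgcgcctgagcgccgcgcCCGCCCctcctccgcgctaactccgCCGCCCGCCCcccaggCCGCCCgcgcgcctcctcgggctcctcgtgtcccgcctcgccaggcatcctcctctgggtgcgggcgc
The E-box CACGTG was in 3 of the 9 windows, against 7.15% of 32851 RefSeq promoter windows of the same length. It began 54 bases before the start in Kcne4, 80 bases in Adra2a and 235 bases in Crispld2. The TATA box was in 2 of 9 windows (13.6% of all), in Agt beginning 30 bases before the start and in Adra2a 29 bases before it. The CCAAT box was in 4 of 9 (37.4% of all) and the GC box in 4 of 9 (35.7% of all), with 6 matches in Slit3, where the matches that begin 34 and 30 bases before the start overlap. The TEAD motif and the RUNX motif were in 1 of 9 windows each, both in Dpep1 (14.7% and 16.8% of all), and the AP-1 motif in 0 of 9 (7.81% of all). Slit3 had 41 CpG pairs in its window and Agt 1, against a median of 7 over all windows. A match says only that these letters stand in the window.

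The first 4 genes act in signalling between cells. Agt had the largest fold change of the set and the fewest reads. It stood at 5.01, 2.06 and 9.24 CPM in Pkm cKO replicates 1 to 3, against 0.545, 0.181 and 0.285 CPM in control replicates 1 to 3. Those levels came from 155, 71 and 372 reads in Pkm cKO libraries and from 20, 7 and 11 reads in controls, so the control level carries a large counting error. The Pkm cKO libraries themselves spread 4.48-fold, with replicate 3 highest and replicate 2 lowest, and no library of one group reached the other. The log2 fold change was 4.00 (SE 0.647) over all libraries and 3.40 (SE 0.586) without Pkm cKO replicate 3.

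Adra2a stood at 10.9, 5.41 and 11.8 CPM in Pkm cKO replicates 1 to 3, against 2.42, 1.63 and 2.05 CPM in control replicates 1 to 3. Replicates 1 and 3 of the Pkm cKO group were close to each other, replicate 2 was lower, and the groups did not overlap. The log2 fold change was 2.20 (SE 0.367), and 2.01 (SE 0.373) without Pkm cKO replicate 3. Slit3 stood at 69.4, 45.1 and 92.9 CPM in Pkm cKO replicates 1 to 3, against 27.3, 28.6 and 20.8 CPM in control replicates 1 to 3. All Pkm cKO libraries lay above the controls, with the smallest gap of the set, its lowest Pkm cKO library being 1.58 times its highest control library. Its log2 fold change was 1.44 (SE 0.258), and 1.17 (SE 0.227) without Pkm cKO replicate 3.

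Clec11a stood at 45.0, 39.5 and 64.5 CPM in Pkm cKO replicates 1 to 3, against 18.9, 19.1 and 22.7 CPM in control replicates 1 to 3. Replicate 3 was the highest Pkm cKO library, and every Pkm cKO library lay above every control. No library held fewer than 695 reads of this gene, and the controls spread only 1.20-fold. The log2 fold change was 1.30 (SE 0.214), and 1.07 (SE 0.176) without Pkm cKO replicate 3.

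**Figure D1:**
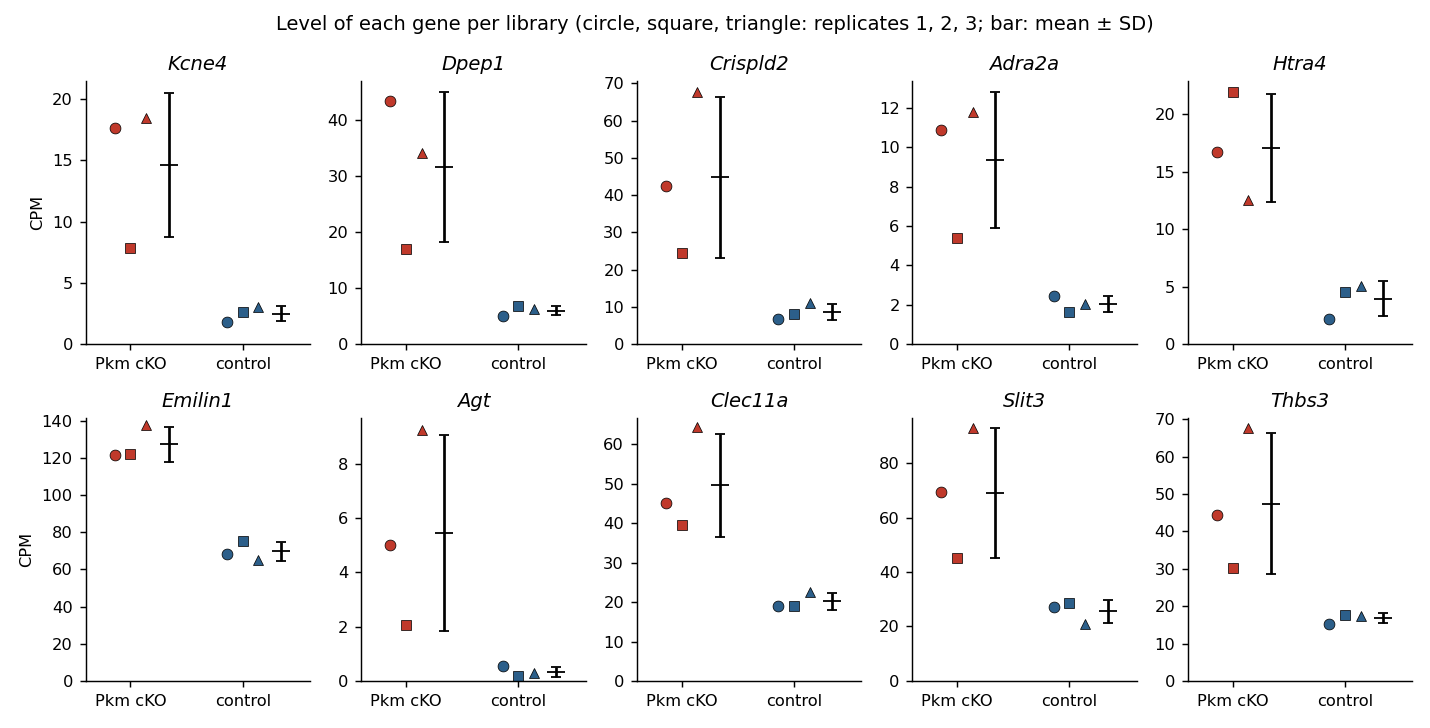
CPM of each of the 10 genes (vertical axis, starting at 0, own scale per gene) in the 3 Pkm cKO and 3 control libraries, with the mean and SD of each group. Replicate 3 is the highest Pkm cKO library for 8 of the genes, while Htra4 has replicate 2 highest at 21.9 CPM and Dpep1 replicate 1 at 43.4 CPM.

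Kcne4, the channel subunit, stood at 17.6, 7.82 and 18.4 CPM in Pkm cKO replicates 1 to 3, against 1.80, 2.64 and 3.01 CPM in control replicates 1 to 3. Replicate 2 was again the low library of the Pkm cKO group, at 2.60 times the highest control. The log2 fold change was 2.56 (SE 0.375), and 2.37 (SE 0.385) without Pkm cKO replicate 3.

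The 2 enzymes differed in which libraries were high. Dpep1 stood at 43.4, 17.0 and 34.1 CPM in Pkm cKO replicates 1 to 3, against 5.06, 6.73 and 6.20 CPM in control replicates 1 to 3. Htra4 stood at 16.7, 21.9 and 12.5 CPM in Pkm cKO replicates 1 to 3, against 2.23, 4.56 and 5.06 CPM in control replicates 1 to 3. Neither gene overlapped with its controls. Htra4 was the only gene of the set whose lowest Pkm cKO library was replicate 3 and whose highest was replicate 2. It was also the only one whose fold change was larger without Pkm cKO replicate 3, at 2.30 on the log2 scale (SE 0.335), against 2.11 (SE 0.348) over all libraries. For Dpep1 the values were 2.34 (SE 0.356) without that library and 2.39 (SE 0.329) with it.

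The 3 genes of the extracellular matrix and secretome had log2 fold changes of 0.87 to 2.38. Emilin1 had the highest level per length of the set and the smallest fold change. It stood at 121, 122 and 138 CPM in Pkm cKO replicates 1 to 3, against 68.4, 75.4 and 65.0 CPM in control replicates 1 to 3. Both groups were tight, with spreads of 1.14-fold and 1.16-fold, and the means were 127 ± 9.27 CPM in Pkm cKO and 69.6 ± 5.33 CPM in control libraries (SD, n = 3 each). The log2 fold change was 0.87 (SE 0.142), and 0.82 (SE 0.143) without Pkm cKO replicate 3.

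Thbs3 stood at 44.3, 30.3 and 67.8 CPM in Pkm cKO replicates 1 to 3, against 15.2, 17.7 and 17.3 CPM in control replicates 1 to 3. Crispld2 stood at 42.4, 24.6 and 67.6 CPM in Pkm cKO replicates 1 to 3, against 6.67, 8.13 and 11.1 CPM in control replicates 1 to 3. Both genes ordered the Pkm cKO libraries in the same way, replicate 3 first and replicate 2 last, and neither overlapped with its controls. For Thbs3 the log2 fold change was 1.50 (SE 0.272), and 1.17 (SE 0.210) without Pkm cKO replicate 3. For Crispld2 it was 2.38 (SE 0.369), and 1.97 (SE 0.287) without that library.

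**Figure D2:**
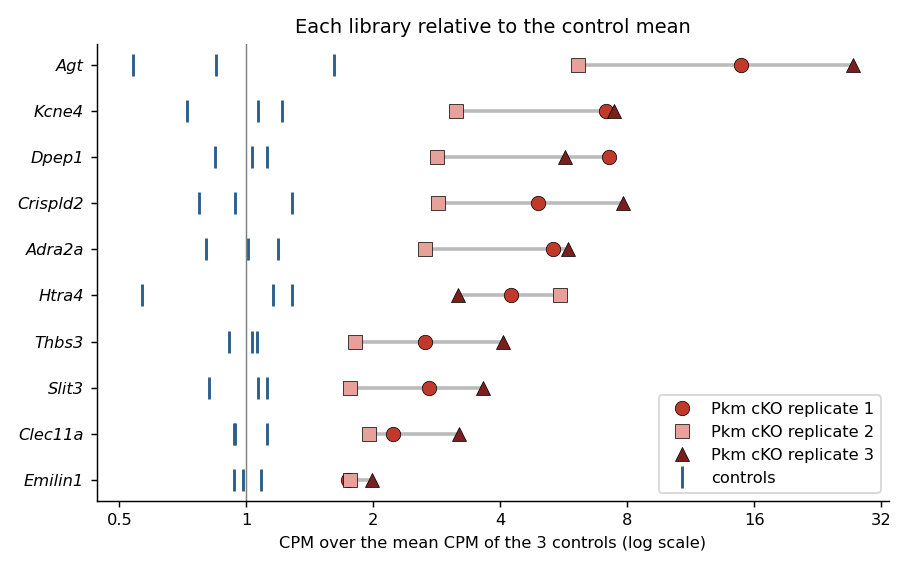
Each library's CPM divided by the mean CPM of the 3 controls (horizontal log axis) for the 10 genes, ordered by the ratio of group means. Pkm cKO replicate 2 is the leftmost of the Pkm cKO libraries for 8 genes, with ratios of 1.76 for Slit3 to 6.12 for Agt, and the controls lie to the left of every Pkm cKO library.

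Across the set, replicate 3 was the highest Pkm cKO library for 8 of 10 genes, against 49% of all genes whose Pkm cKO libraries lay above the controls. Replicate 2 was the lowest for 8 of 10, against 37.5% of those genes. The spread on the log2 scale was larger in the Pkm cKO group than in the controls for 8 of the 10, Htra4 and Emilin1 being the exceptions, and the same held for 72.3% of all tested genes. The mean of the standardised log2 CPM of the 10 genes was 0.93, 0.42 and 1.20 in Pkm cKO replicates 1 to 3 and -0.94, -0.82 and -0.79 in control replicates 1 to 3. After subtraction of group means, the correlation of each gene with that mean, which contains the gene itself, over the 6 libraries ran from 0.49 to 0.98 for 9 genes and was -0.35 for Htra4.

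Leaving out Pkm cKO replicate 3 lowered the log2 fold change of 9 of the 10 genes, and the median of the set was 1.99 without it and 2.15 with it. The median of all tested genes was 0.01 both ways. The 10 genes stayed above the controls without that library, which follows from how they were chosen and shows nothing further. By that rule of non-overlap, 11.2% of all tested genes had higher Pkm cKO libraries and 12.2% lower ones, and without replicate 3 the share higher was 17.2%. The ratio of mean CPM was at least 2 for 9 genes with and without replicate 3. Emilin1 was the exception, with ratios of 1.83 and 1.75. Just outside the rule, among protein-coding genes with at least 5 CPM, Sclt1 had a lowest Pkm cKO library of 7.43 CPM and a highest control library of 7.43 CPM, the control being higher by a small fraction.

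**Figure D3:**
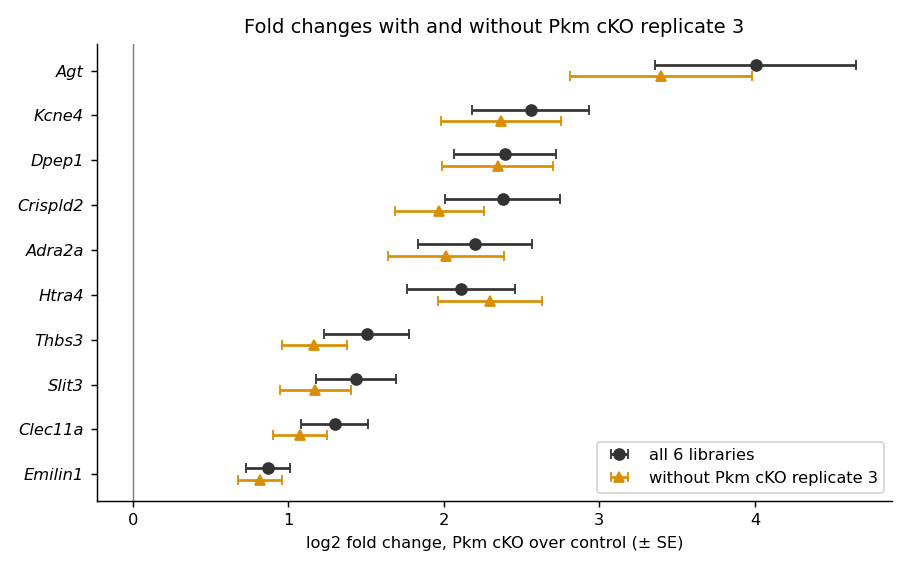
Log2 fold change, Pkm cKO over control, with SE bars (horizontal axis) for the 10 genes, from all 6 libraries (circles) and without Pkm cKO replicate 3 (triangles). The values run from 0.87 for Emilin1 to 4.00 for Agt with all libraries, and Htra4 is the gene whose triangle lies to the right of its circle.

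In the fit of all genes, 0.552% passed an edgeR adjusted p under 0.05, 0.345% as higher and 0.207% as lower in Pkm cKO libraries. All 10 genes were among the 55 called higher, and nothing is read from that count, since the same contrast chose them. The other 45 genes called higher also had groups that did not overlap, and no gene called higher had a smaller fold change than Emilin1. Leaving out control replicate 1, 2 or 3 left 0 calls among all genes (1532, 1766 and 2495 at an unadjusted p under 0.05), and leaving out Pkm cKO replicate 1, 2 or 3 gave 640, 186 and 125. In the ranking of all tested genes by fold change the 10 stood between position 66 (Agt) and position 1491 (Emilin1).

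Levels can be compared between genes only per length, here as CPM per kilobase of merged GENCODE M21 exons. In controls the order ran from Emilin1 at 14.1 ± 1.08 to Agt at 0.178 ± 0.0989 CPM per kilobase (SD, n = 3 each), with Clec11a, Slit3, Thbs3, Dpep1, Crispld2, Htra4, Kcne4 and Adra2a between them in falling order. Libraries overlapped between Slit3 and Thbs3, Dpep1 and Crispld2, Crispld2 and Htra4, and Htra4 and Kcne4, and did not overlap between the other neighbours in that order. In Pkm cKO libraries Emilin1 was again highest, at 25.8 ± 1.88 CPM per kilobase, and Adra2a lowest, at 1.94 ± 0.714. There Dpep1 came next after Emilin1 and Clec11a with 12.7 ± 5.38 CPM per kilobase, and all neighbours in the order overlapped except Emilin1 and Clec11a.

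Annotation terms in the deposited table placed 6 of the 10 products in the extracellular region, against 6.36% of tested genes, and 5 in the extracellular space, against 5.58%. Heparin binding was given to Crispld2, Slit3 and Thbs3 (0.785% of tested genes), blood pressure regulation to Emilin1 and Agt (0.37%), and formation of the aortic valve to Emilin1 and Slit3 (0.157%). Plasma membrane was given to 3 of the 10, against 20.3% of tested genes. The terms were picked by hand and not all are given, so these shares are a description and no test. By the RefSeq table, 4 of the 10 genes, Dpep1, Crispld2, Htra4 and Agt, lie on chromosome 8, which holds 5.27% of the tested genes. The others lie on 6 different chromosomes.

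The genes next to the 10 on the chromosome held no call. Among all tested genes 0.552% passed in the edgeR test, 7.02% with DESeq2 and 0.0126% with limma-voom, and 17.5% had an unadjusted edgeR p under 0.05. Of 13 tested neighbours, 0 passed in the edgeR test, 0 with DESeq2 and 0 with limma-voom. So few genes could give these counts at the shares above, so nothing is read from them. An unadjusted edgeR p under 0.05 was reached by 2 neighbours. These were Ost4, a subunit of the enzyme that attaches sugar chains to proteins, which lies beside Emilin1 on the opposite strand (72.4 ± 13.7 CPM in Pkm cKO and 101 ± 2.73 CPM in control libraries), and the non-coding Gm46277. Mtx1, the nearest gene to Thbs3 on one side and on the opposite strand, had 41.5 ± 5.79 CPM in Pkm cKO and 39.7 ± 6.58 CPM in control libraries. On either side of Crispld2, Usp10 and Zdhhc7 had log2 fold changes of 0.04 (SE 0.154) and 0.21 (SE 0.167). Beside Htra4, Tm2d2 and Plekha2 stood at 0.25 (SE 0.185) and 0.57 (SE 0.320). Chmp1a beside Dpep1 stood at -0.05 (SE 0.159), Shoc2 beside Adra2a at -0.36 (SE 0.180), Cog2 beside Agt at -0.12 (SE 0.158), Khk beside Emilin1 at 0.08 (SE 0.201), Shank1 beside Clec11a at 0.21 (SE 0.154) and Pank3 beside Slit3 at -0.31 (SE 0.227). Gm46277 overlaps Slit3 and averaged 0.504 ± 0.028 CPM in Pkm cKO and 0.121 ± 0.0825 CPM in control libraries, so its reads and those of Slit3 may not be separable. LOC115489723, which overlaps Thbs3, had 3 to 9 reads in a library, and the antisense gene that overlaps Kcne4 was not analysed here.

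The families, receptors and pathway partners of the 10 genes were followed in 10 lists, which hold none of the 10. Of 113 tested genes in these lists 1 passed over all genes, Pth1r. Its product is the receptor for parathyroid hormone on bone-forming and tooth cells. Pth1r rose to 31.8, 26.4 and 28.2 CPM in Pkm cKO replicates 1 to 3, against 9.50, 11.2 and 14.6 CPM in control replicates 1 to 3. The log2 fold change of Pth1r was 1.29 (SE 0.216, edgeR adjusted p 0.0451), and 1.31 (SE 0.226, edgeR adjusted p 0.0413) without Pkm cKO replicate 3. The call was lost in 5 of 14 alternatives, namely without control replicate 1 (edgeR adjusted p 0.260), 2 (0.211) or 3 (0.158), without robust estimation (0.0621) and with limma-voom (0.0730). The lowest adjusted p was 6.6e-06, with DESeq2. An unadjusted edgeR p under 0.05 was reached by 39 of the 113 (34.5%), against 2782 of all 15930 tested genes (17.5%). DESeq2 called 14 higher and 4 lower (15.9% together, against 7.02% of all tested genes), and limma-voom called 0. The lists were chosen with earlier results of these data known, so these shares are given as a description only. Median fold changes below are set against 0.01 for all tested genes.

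The renin-angiotensin list was split evenly around 0. Of its 14 tested genes 7 lay above 0 on the log2 scale and 7 below, the median being -0.03. In edgeR 0 passed (2 at an unadjusted p under 0.05, 1 higher and 1 lower with DESeq2, 0 with limma-voom). Ren1, the gene of renin, had too few reads to be tested. Mme, the neutral endopeptidase that breaks down angiotensin and other peptides, had the highest mean CPM of the list, with 253 ± 69.5 CPM in Pkm cKO and 573 ± 105 CPM in control libraries (SD, n = 3 each, log2 fold change -1.18, edgeR adjusted p 0.0538). Agtr2, a receptor of angiotensin, had 19.0 CPM in Pkm cKO replicate 3 and at most 0.355 CPM in the other 5 libraries.

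For Adra2a, 0 of 10 tested adrenergic receptor and Gi protein genes passed in edgeR, DESeq2 or limma-voom, and 0 had an unadjusted edgeR p under 0.05. Gnai2, the Gi protein gene with the highest mean CPM of the list, had 492 ± 61.0 CPM in Pkm cKO and 488 ± 21.8 CPM in control libraries.

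For Slit3, 0 of 12 Slit, Robo and downstream genes passed in edgeR, DESeq2 or limma-voom, and 2 had an unadjusted edgeR p under 0.05. The lowest p belonged to Srgap1, a Robo effector, with 64.8 ± 2.72 CPM in Pkm cKO and 46.7 ± 7.13 CPM in control libraries. Gpc1, a heparan sulphate proteoglycan that binds Slit proteins, had 438 ± 55.6 CPM in Pkm cKO and 479 ± 35.8 CPM in control libraries.

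For Clec11a, the list of its receptor, related lectins and osteoblast genes held Pth1r as its 1 call among 13 tested genes (5 at an unadjusted edgeR p under 0.05, 2 with DESeq2, 0 with limma-voom). Alpl, the alkaline phosphatase of mineralising cells, had the highest mean CPM, with 748 ± 204 CPM in Pkm cKO and 852 ± 79.5 CPM in control libraries.

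For Kcne4, 0 of 14 potassium channel genes passed in edgeR (5 at an unadjusted p under 0.05, 1 higher and 1 lower with DESeq2, 0 with limma-voom). Of the 14, 7 stood above 0 and 7 below. Kcne1l, another subunit of the same family, had 2.87 ± 1.72 CPM in Pkm cKO and 0.366 ± 0.218 CPM in controls, a log2 fold change of 2.96 (SE 0.629) with an edgeR adjusted p of 0.0722. Kcnma1, a calcium-activated channel, had the highest mean CPM, with 14.8 ± 4.19 CPM in Pkm cKO and 12.7 ± 3.09 CPM in control libraries.

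For Dpep1, 0 of 14 dipeptidase, glutathione and leukotriene genes passed in edgeR (4 at an unadjusted p under 0.05, 0 with DESeq2, 0 with limma-voom). The related genes Dpep2 and Dpep3 had too few reads to be tested. Ggt1, which starts glutathione breakdown upstream of the dipeptidases, had 82.7 ± 34.6 CPM in Pkm cKO and 115 ± 7.58 CPM in control libraries. The membrane peptidase gene Anpep had 56.4 ± 22.3 CPM in Pkm cKO and 93.8 ± 21.3 CPM in control libraries.

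For Htra4, 0 of the 3 other HtrA protease genes passed in edgeR (1 at an unadjusted p under 0.05, 1 with DESeq2, 0 with limma-voom), and all 3 stood above 0 on the log2 scale (median 0.51). Htra3 had 35.2 ± 4.47 CPM in Pkm cKO and 21.7 ± 2.60 CPM in control libraries, and Htra1 had 44.1 ± 20.1 CPM in Pkm cKO and 31.0 ± 2.73 CPM in control libraries. For Crispld2, 0 of 4 tested CAP superfamily genes passed in edgeR (1 at an unadjusted p under 0.05, 1 with DESeq2, 0 with limma-voom). Pi15, a secreted member of that family, had 14.9 ± 7.01 CPM in Pkm cKO and 73.7 ± 29.9 CPM in control libraries, a log2 fold change of -2.31 (SE 0.402) with an edgeR adjusted p of 0.0623.

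The 2 matrix lists held the highest medians of the 10 over all libraries. Without Pkm cKO replicate 3 the thrombospondin list was still first, while the elastic fibre list stood below the HtrA list (0.45) and the Clec11a list (0.42). In the EMILIN family and elastic fibre list 16 of 22 tested genes stood above 0 on the log2 scale (median 0.64, and 0.37 without Pkm cKO replicate 3). In edgeR 0 passed (15 at an unadjusted p under 0.05, 7 higher and 1 lower with DESeq2, 0 with limma-voom). Of these 15, Loxl2, Ltbp2 and Ltbp3 were lower in Pkm cKO libraries (log2 fold changes -0.93, -0.47 and -0.46) and the rest higher. Without Pkm cKO replicate 3 edgeR called 2 genes of the list higher, the microfibril gene Mfap4 (log2 fold change 1.51, SE 0.197, adjusted p 0.0305) and the crosslinking enzyme gene Loxl1 (1.31, SE 0.208, adjusted p 0.0364). Fbn2, a fibrillin of developing microfibrils, had 148 ± 45.2 CPM in Pkm cKO and 75.9 ± 2.90 CPM in control libraries. Fbln1, a fibulin and the gene with the highest mean CPM of the list, had 636 ± 116 CPM in Pkm cKO and 664 ± 77.9 CPM in control libraries. In the thrombospondin list 6 of 7 genes stood above 0 (median 1.36, and 0.92 without Pkm cKO replicate 3), and 0 passed in edgeR (4 at an unadjusted p under 0.05, 2 with DESeq2, 0 with limma-voom). Thbs2 had 115, 43.1 and 212 CPM in Pkm cKO replicates 1 to 3, against 31.4, 28.9 and 29.3 CPM in control replicates 1 to 3.

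**Figure D4:**
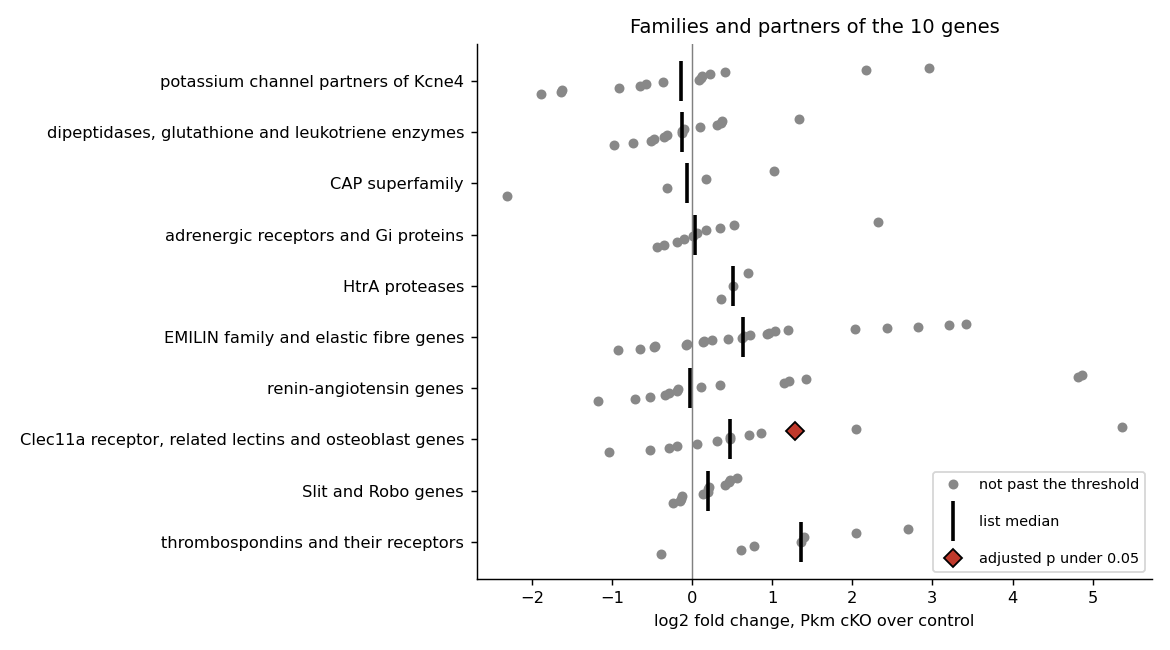
Log2 fold change, Pkm cKO over control (horizontal axis), of each tested gene in the 10 lists of families and partners, with a bar at each list's median. The diamond is Pth1r at 1.29, the 1 gene past the threshold, and the thrombospondin list has the highest median at 1.36.

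The genes whose pattern over the 6 libraries was most like the mean of the 10 were sought among 11172 other protein-coding genes with at least 5 CPM. Likeness was the Pearson correlation of log2 CPM with the mean of the standardised values of the set, over 6 libraries that share the group difference, so it is given as a description. The first was Tcirg1, a proton pump subunit of osteoclasts (r = 0.999), with 63.1, 48.1 and 72.9 CPM in Pkm cKO replicates 1 to 3, against 20.6, 21.7 and 21.2 CPM in control replicates 1 to 3. Next came Csf1, the growth factor of macrophages and osteoclasts (r = 0.998), with 28.8 ± 6.52 CPM in Pkm cKO and 11.4 ± 0.965 CPM in control libraries. Col13a1, a transmembrane collagen (r = 0.998), had 16.4 ± 4.81 CPM in Pkm cKO and 3.64 ± 0.537 CPM in control libraries. Scarf2, a scavenger receptor gene (r = 0.995), had 106 ± 15.0 CPM in Pkm cKO and 44.9 ± 3.06 CPM in control libraries. Axin2, a feedback inhibitor of Wnt signalling (r = 0.995), had 85.7 ± 7.40 CPM in Pkm cKO and 56.5 ± 2.34 CPM in control libraries. The remaining 3 were Sema6b, a semaphorin (r = 0.994), Six2, a transcription factor of mesenchymal progenitors (r = 0.993), and Fbxl7, a ubiquitin ligase subunit (r = 0.990).

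The name stromal was checked against cell type markers. For the marker counts below, 11.2% of all tested genes had Pkm cKO libraries above the controls and 12.2% below. Of all tested genes 0.552% passed in edgeR, 7.02% with DESeq2 and 0.0126% with limma-voom, and 17.5% had an unadjusted edgeR p under 0.05. All 12 dental epithelium markers were detected, and their sum was 12896 to 17254 CPM in Pkm cKO libraries, against 26903 to 39469 CPM in controls. Of these 1 passed as lower, the enamel epithelium gene Odam, with 186 ± 28.1 CPM in Pkm cKO and 437 ± 18.4 CPM in control libraries (edgeR adjusted p 0.0312). DESeq2 called 3 lower and limma-voom 0, the Pkm cKO libraries lay below the controls for 7 of the 12, and the median log2 fold change was -0.49. Amelx, the gene of the enamel protein amelogenin, made up 122 to 4136 CPM of the Pkm cKO sums and 8564 to 18617 CPM of the control sums. Without it the sums were 12774 to 14173 CPM in Pkm cKO libraries, against 18339 to 20852 CPM in controls. Krt5, a basal keratin, had 5216 ± 527 CPM in Pkm cKO and 7018 ± 607 CPM in control libraries. The 18 markers of dental mesenchyme and fibroblasts summed to 42119, 24917 and 20744 CPM in Pkm cKO replicates 1 to 3, against 31768, 32764 and 21278 CPM in control replicates 1 to 3. These sums overlapped. Col1a1 made up most of each except in Pkm cKO replicate 3, where it was 9097 of 20744 CPM. Without it the sums were 14674, 8068 and 11647 CPM in Pkm cKO replicates 1 to 3. The control replicates 1 to 3 then had 10781, 10760 and 7587 CPM, and the groups still overlapped. Singly, 12 of the 18 had Pkm cKO libraries above the controls and 0 passed in edgeR (12 at an unadjusted p under 0.05, 8 with DESeq2, 0 with limma-voom), with a median log2 fold change of 0.77 (0.57 without Pkm cKO replicate 3). Without that library edgeR called 1 higher, the collagen gene Col3a1 (log2 fold change 1.01, SE 0.173, adjusted p 0.0413). Which cells the reads of the 10 genes came from was not measured. In bulk RNA fewer cells of a type and less RNA per cell cannot be told apart.

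Markers of other cell types were followed in the same way. The 6 skeletal muscle markers summed to 59.9, 12.5 and 2593 CPM in Pkm cKO replicates 1 to 3, against 1.77, 0.803 and 1.71 CPM in control replicates 1 to 3. Myod1 was at 0 reads in 5 libraries and had 173 reads in Pkm cKO replicate 3, and Myh3 was at 0 reads in 1 control. Of the 5 that were tested, 0 passed in edgeR (4 at an unadjusted p under 0.05, 2 with DESeq2, 0 with limma-voom). Without Pkm cKO replicate 3 edgeR called 2 higher, the muscle myosin gene Myh8 (log2 fold change 6.28, SE 0.980, adjusted p 0.0364) and the muscle creatine kinase gene Ckm (3.14, SE 0.582, adjusted p 0.0472), and the median of the tested markers was 4.22. The 10 macrophage markers, none at 0 reads in any library, summed to 185, 118 and 186 CPM in Pkm cKO replicates 1 to 3, against 78.0, 79.5 and 70.5 CPM in control replicates 1 to 3. Of these 9 stood above 0 on the log2 scale, DESeq2 called 7 and limma-voom 0. In edgeR 1 passed, the complement gene C1qc, with 17.1 ± 0.746 CPM in Pkm cKO and 7.34 ± 1.03 CPM in control libraries (adjusted p 0.0487). Replicate 2 was the lowest Pkm cKO library for both sums, for the endothelial and erythroid sums given below, and for 8 of the 10 genes. It was not the lowest for the epithelial, odontoblast, pericyte and Schwann cell sums, nor for the mesenchymal sum unless Col1a1 was left out. The part of muscle, macrophage or mesenchymal RNA in the levels of the 10 genes was not tested. The 10 pericyte and smooth muscle markers (629 to 890 CPM in Pkm cKO libraries, against 714 to 838 CPM in controls) and the 9 endothelial markers (365 to 652 CPM, against 350.0 to 423 CPM) overlapped between the groups. So did the 6 Schwann cell and nerve markers (161 to 343 CPM, against 292 to 432 CPM) and the 5 odontoblast markers (9487 to 31159 CPM, against 16248 to 26527 CPM). Without Tubb3 the Schwann cell sums did not overlap (74.7 to 92.3 CPM in Pkm cKO libraries, against 50.5 to 72.5 CPM in controls). Of these markers 4 stood above 0 and 2 below (median log2 fold change 0.67, 0 calls in edgeR, 2 higher and 1 lower with DESeq2). Without Col1a1 the odontoblast sums still overlapped (390 to 3713 CPM, against 2557 to 5480 CPM). All 5 odontoblast markers stood below 0 (median -0.52, and -0.05 without Pkm cKO replicate 3), and 0 had an unadjusted edgeR p under 0.05. The 6 erythroid markers summed to 267 to 353 CPM in Pkm cKO libraries, against 574 to 801 CPM in controls, and 3 of the 5 tested passed as lower, the haemoglobin genes Hba-a1, Hbb-bs and Hbb-bt. DESeq2 called 5 lower and limma-voom 0. Without Pkm cKO replicate 3 edgeR called 2 of them, Hbb-bs and Hbb-bt, and without replicate 2 only Hbb-bt. Hba-a1 and Hbb-bs missed the threshold with RLE scaling, Hba-a1 also with upper-quartile scaling, and all 3 without robust estimation or without any 1 control.

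**Figure D5:**
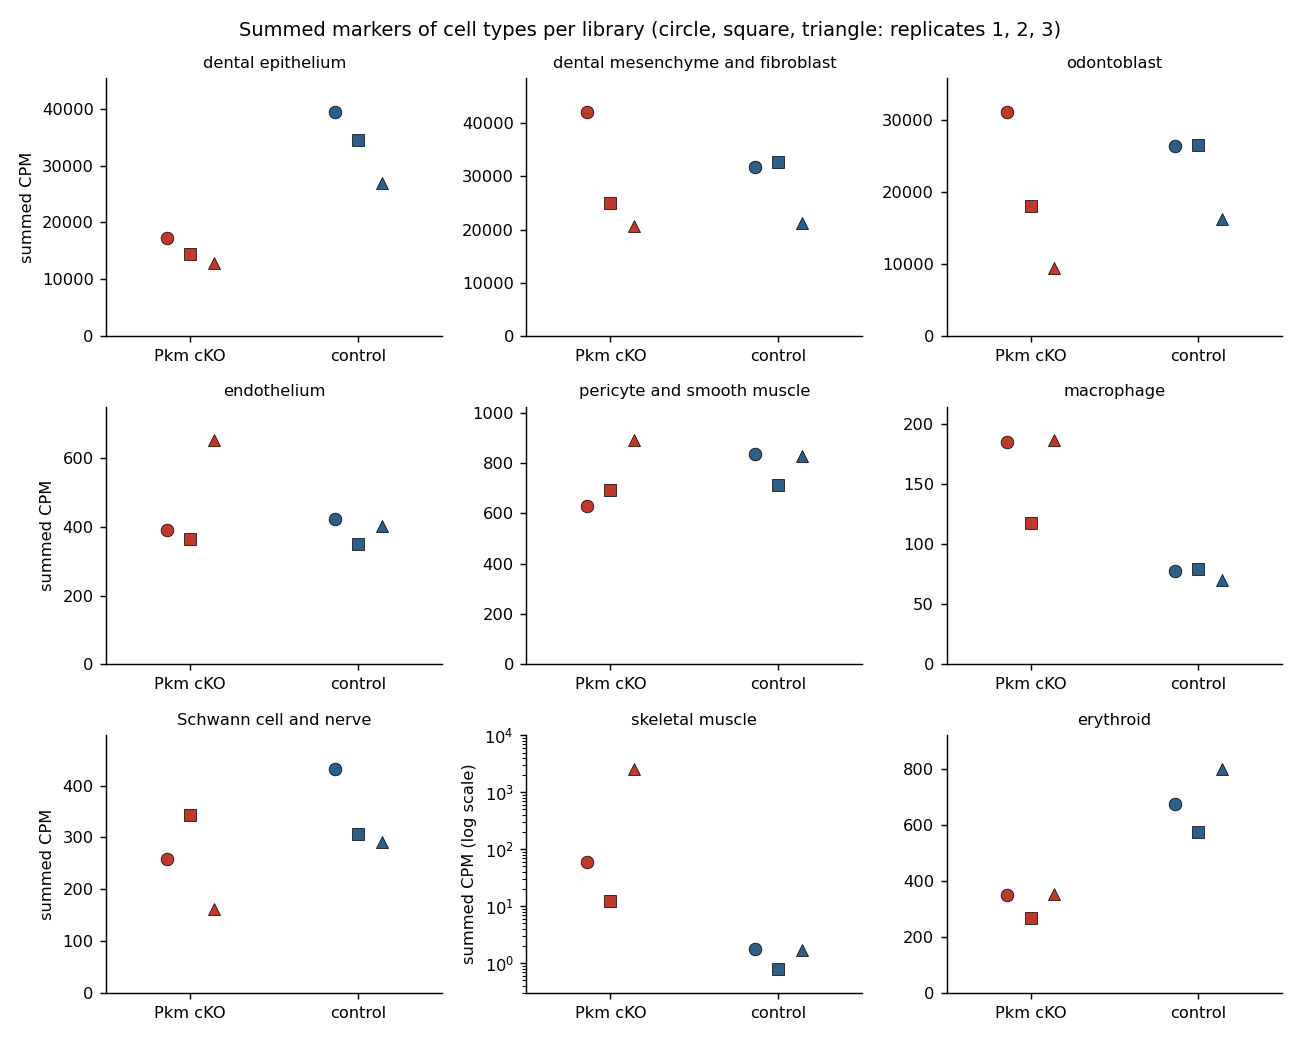
Summed CPM of the markers of 9 cell types (vertical axis, starting at 0 except for skeletal muscle, which has a log axis) in each Pkm cKO and control library. Pkm cKO replicate 3 stands at 2593 CPM of skeletal muscle markers, and macrophage sums are higher and epithelial sums lower in all Pkm cKO libraries than in the controls.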

How the data were processed

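The values, as deposited, were raw read counts, whole numbers for each gene and each of 6 libraries in 1 table. The submitters' processing notes name fastp, HISAT2 and, as genome build, mm39. How reads were counted, with which strand setting and annotation, is not given in the sources used here. Reads of overlapping or antisense genes therefore cannot be told apart. The reference tables are of GRCm38, so no gene coordinates are given apart from those of the RefSeq promoter windows.

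Genes passing filterByExpr were kept, libraries were scaled by TMM, and groups compared with the two-sided edgeR quasi-likelihood test with robust estimation (edgeR 4.0.16, R 4.3.3), Benjamini-Hochberg adjusted over all tested genes, with a threshold of 0.05. Fold changes are Pkm cKO over control, and their SE was taken as log2 fold change over root F. Alternatives were RLE or upper-quartile scaling, 2 other filters, DESeq2 1.42.0, limma-voom (limma 3.58.1), edgeR without robust estimation, the replicate number as a block, and leaving out each library. The procedure was also run on simulated counts, whose outcome is not given here and is not used as backing for any call. For correlations, 2 was the prior count behind log2 CPM. The 10 genes and the lists were chosen with earlier results of these data known. Of 131 genes in the lists of families and partners, 130 were in the table and 113 were tested. The text names each tested neighbour, in each family list the calls, the most abundant gene and the gene with the lowest p, and the 8 genes most like the set. Of the genes this rule picks, 1 is not reported here. Other genes named were chosen after their values were seen. All sample columns of the table were used.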

Additional observations from a re-analysis of the deposited data

How the results depend on the processing

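The log2 fold changes of the 10 genes kept their sign under all 14 alternatives, which follows in part from the choice of the genes, and each moved by less than 1 SD between replicates. Their median ran from 1.99 to 2.26. The count of genes called, 88, was 55 with RLE scaling, 518 with every gene of at least 1 read, 1118 with DESeq2, 2 with limma-voom (2741 at an unadjusted p under 0.05), 2 without robust estimation (2840) and 714 with the replicate block. Upper-quartile scaling called 57 higher and 18 lower, against 55 and 33 with TMM. Leaving out 1 library gave 0 to 640, with 640 calls lacking Pkm cKO replicate 1, 186 lacking replicate 2, 125 lacking replicate 3, and 0 lacking any 1 control (1532 to 2495 at an unadjusted p under 0.05). The count of family and partner genes called, 1, was 6 with every gene of at least 1 read, 18 with DESeq2, 0 with limma-voom, 0 without robust estimation and 10 with the replicate block, and 0 to 10 when 1 library was left out. For Pkm, leaving out 1 library gave log2 fold changes from -1.82 to -1.66, with an adjusted p of 0.0792, 0.0600 and 0.0790 without control replicates 1, 2 and 3. Same-numbered libraries deviated together at correlations of 0.235, 0.0150 and 0.215, and not every library correlated best with its own number, so the numbers were not taken to pair the samples. Genes not past the threshold that changed sign were Gnai2, at -0.00196 with the replicate block, and, over the fits leaving out 1 library, Gnai2 (-0.0902 to 0.0710), Kcnma1 (-0.0158 to 0.41), Chmp1a (-0.12 to 0.0824), Khk (-0.0280 to 0.23), Usp10 (-0.0352 to 0.13), Mtx1 (-0.0447 to 0.20), Fbln1 (-0.16 to 0.0910), Alpl (-0.33 to 0.0304), Col1a1 (-0.54 to 0.24), Col1a2 (-0.63 to 0.0680) and Cdh5 (-0.0325 to 0.53). The cause was not tested. Depth limits Agt most, with 7 to 20 reads in controls.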
